A study of Mus musculus with 10 samples.

Results

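The 5 RhoB-/- libraries of colon intestinal epithelial cells (IECs) were examined for the genes whose level differed most between them and for the genes that varied together. Members were selected on the level of expression. A gene was taken if its mean over these 5 libraries was at least 5 TPM, a length-normalized share of the transcripts in a library, which held for 9001 of the 55487 genes in the table (16.2%). Of the members, 8499 were protein-coding. The series compared RNA of IECs from C57BL/6J mice, of which 5 are labelled WT and 5 RhoB-/-, and the Rhob level of 1 library goes against its label, as described below. RhoB-/- mice lack the small GTPase RhoB in the whole animal, and IECs were released from opened colons with EDTA and DTT rather than sorted, so that other cells of the mucosa could be carried over. No treatment was named for either group, and the labels give neither age nor sex, while the study's methods name young adult mice in general and WT mice bought from a supplier. The RhoB-/- libraries are numbered 1 to 5 as in the labels, and where 5 values are listed they stand in that order. Nothing in the labels ties a library to a litter, a cage or a day, so the spread between libraries may hold both differences between animals and differences in handling.

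The spread of a gene was measured as the standard deviation (SD) of log2(TPM + 1) over the 5 libraries. Both the membership and the ranking by SD come from these values, so all that follows is a description and no test was made. The members nearest to the limit were Cd99l2 and Miga1, each with a mean of 5.002 TPM, and the nearest genes outside it were Zfp266 at 4.998 and Klhl25 at 4.996 TPM. Genotypes were not compared. The WT libraries served only to give the SD of the same genes in a second set of 5 libraries. No limit on the WT level was set for these SDs. A gene near 0 TPM in all libraries of a set has a small SD of log2(TPM + 1), so a small WT SD can go with a low WT level.

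Several gene groups named here have well-known roles in the colon. MHC class II molecules present peptides to CD4+ T cells; epithelial cells make them when interferon-gamma induces the coactivator Ciita, while dendritic cells, macrophages and B cells make them constitutively. Reg3b and Reg3g are C-type lectins that epithelial cells secrete against bacteria, and their transcripts respond to microbes and to cytokines such as IL-22. The colon epithelium renews itself from proliferating crypt cells, and homeobox genes such as Hoxb13 and Hoxb6 differ between its distal and proximal parts.

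Members carried 98.7% to 99.0% of the TPM in each library. Between 20261 and 20594 genes were above 0 per library, and the epithelial marker Epcam was between 1124 and 1639 TPM. Rhob, the targeted gene, had a TPM of 0.09, 0.10, 0.35 and 0.57 in replicates 1 to 4 and of 111 in the library labelled RhoB-/- replicate 5, which goes against that label. Mitochondrially encoded genes took 19.4%, 22.4%, 10.3%, 17.1% and 12.1% of the TPM. TPM is a share of each library, and the median deviation of protein-coding members from their own mean was -0.07, -0.21, 0.16, -0.00 and 0.11 on the log2 scale. Deviations of gene lists are therefore given relative to the typical protein-coding member of the same library.

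Most members differed little between the RhoB-/- libraries. The median SD of protein-coding members was 0.232, a factor of 1.17 in TPM + 1, and 90% of them had an SD below 0.392. The highest library was at a median of 1.53 times the lowest, and in 1058 protein-coding members (12.4%) it was at least 2 times the lowest. An SD of at least 1 was found for 208 members (2.31% of all members) and for 46 protein-coding members (0.541%). Without the library labelled replicate 5, 197 of 8958 members had an SD of at least 1, and the median SD of members was 0.229 against 0.237 with it.

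**Figure D1:**
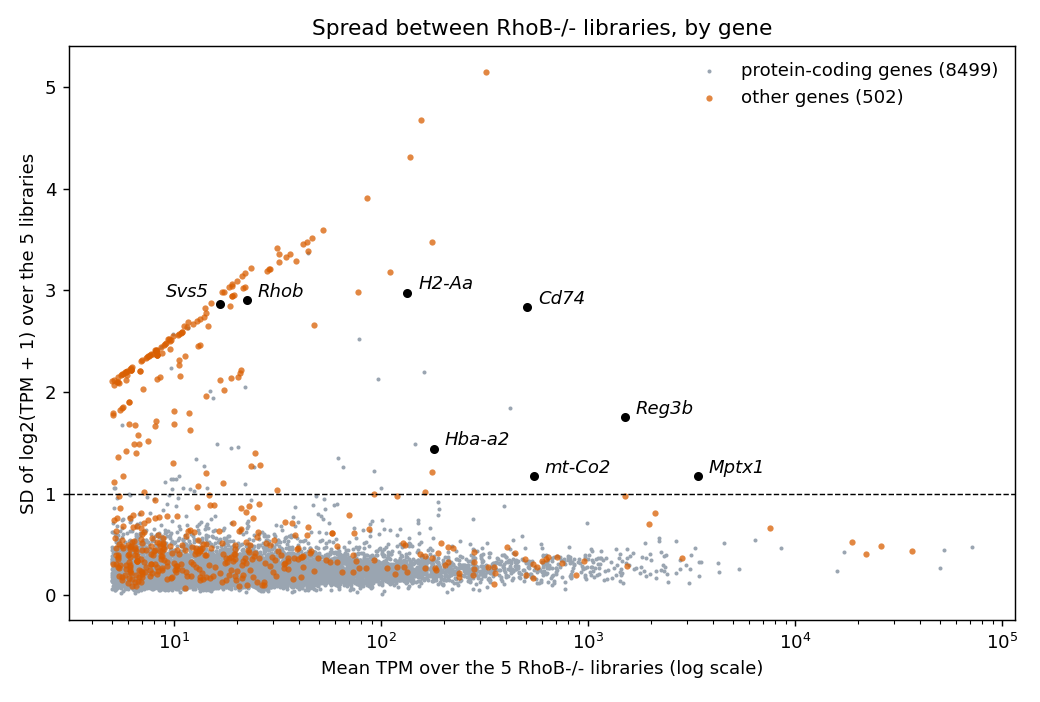
Spread and level of the 9001 members. The x axis gives the mean TPM over the 5 RhoB-/- libraries on a log scale and the y axis the SD of log2(TPM + 1), with 1 point per gene, protein-coding genes in grey and other genes in orange, and a dashed line at an SD of 1. Many genes along the upper edge were listed at 0 in some of the libraries, while H2-Aa, Cd74 and Reg3b stand apart at a high level, with SDs of 2.98, 2.83 and 1.75.

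Members not annotated as protein-coding, many of them short, were more often variable. An SD of at least 1 was found in 162 of these 502 members (32.3%). The 119 small RNA members had a median length of 126 bases and a median SD of 2.36, and 105 of them were listed at 0 in at least 1 library. The 5S rRNA genes are near-identical copies between which reads cannot be divided with certainty, so their single values are uncertain. Summed over all 180 copies in the table, 5S rRNA came to 579, 235, 1309.6, 190.3 and 143 TPM, highest in replicate 3 and lowest in the library labelled replicate 5. The largest SD of any member, 5.15, belonged to Gm26377, a 108-base miRNA model inside Eef1a1 listed at 0, 302, 1307, 0 and 0 TPM, and its reads cannot be told apart from those of its host. Among the genes listed at 0 in 1 library was the processed pseudogene Rpl27-ps3, at 130.4, 112, 238, 394 and 0 TPM. The values below are therefore mainly those of protein-coding members.

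Of the protein-coding members, the 425 with the largest SD (5%) had an SD of at least 0.473. For each gene the 5 libraries were put in order and divided at the widest gap between neighbours. Replicate 3 alone lay above the gap in 114 of the 425 genes (26.8%), and in 24.1% of all protein-coding members. Replicates 1, 3 and the library labelled replicate 5 lay above replicates 2 and 4 in 38 of the 425 (8.94%), against 3.11% of all protein-coding members. The opposite division, with replicates 2 and 4 above, was found in 13 (3.06%) against 0.435%. Replicate 2 alone lay below the gap in 51 (12%) against 18.3%, and the library labelled replicate 5 alone lay above it in 32 (7.53%) against 15.4%. With centred libraries, and the same 425 genes as picked before centring, these last comparisons turned. Picked again after centring, the most variable 5% would share 323 of the 425. Replicate 2 alone lay below in 7.53% against 4.26%, and the library labelled replicate 5 alone lay above in 7.76% against 6.40%. Replicates 1, 3 and 5 lay above in 6.82% against 2.07% with this scaling, and replicates 2 and 4 in 3.29% against 2.02%. Replicate 3 alone lay above in 24% against 15.9%. Since the 425 genes were picked for their spread in the same libraries, these shares describe how the spread was distributed and were not tested. A single library stood far from the other 4, by the size of its gap relative to the range, in 378 of the 8499 protein-coding members (4.45%) and in 464 of all members (5.15%). Replicate 3 was the high one in 131 of the 378 and the library labelled replicate 5 in 126, and replicate 2 was the low one in 70.

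**Figure D2:**
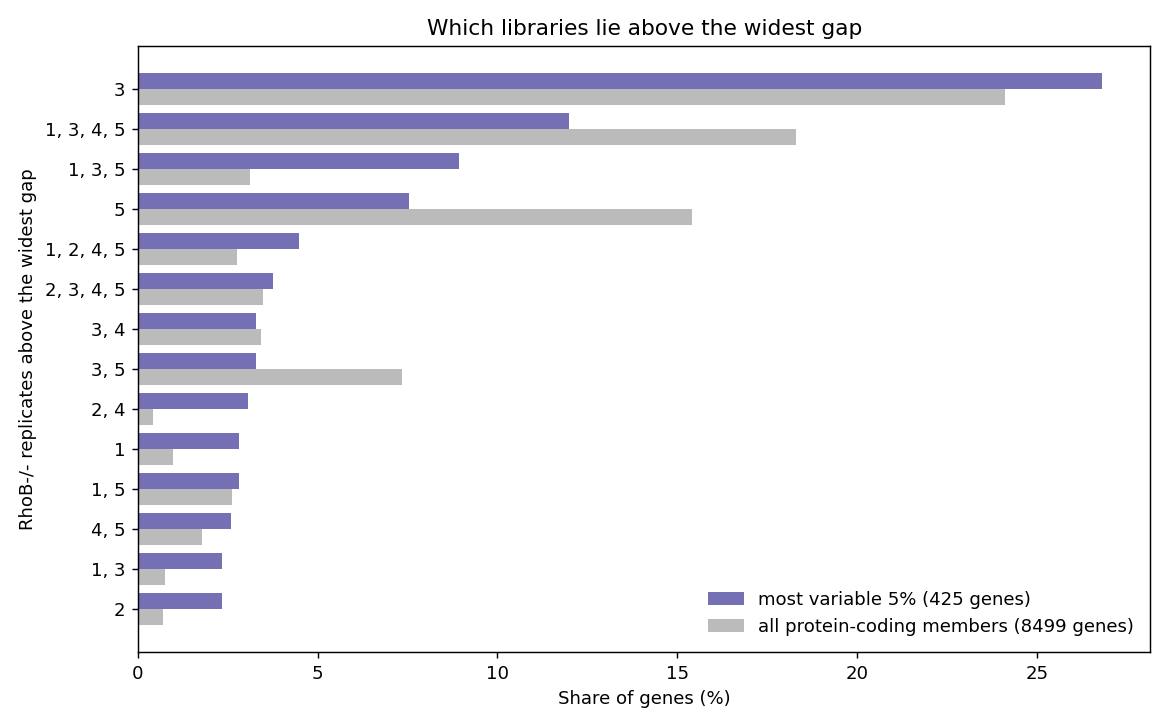
Division of the 5 RhoB-/- libraries at the widest gap. Each bar gives the share of genes in percent in which the named replicates lay above the gap, for the 425 most variable protein-coding members (purple) and for all 8499 (grey), shown for the 14 most frequent divisions. Replicate 3 alone was the most frequent in both, and the division of 1, 3 and 5 from 2 and 4 took 8.94% of the purple and 3.11% of the grey genes.

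Leaving aside genes that rest on a single library or overlap another, H2-Aa and Cd74 of the MHC class II pathway had the largest SDs of the protein-coding members. H2-Aa, the alpha chain of I-A (chr17:34282744-34287823, minus strand), had 242, 2.23, 356, 7.24 and 59.3 TPM. Cd74, the invariant chain that escorts class II molecules, had 876, 14, 1391, 36.1 and 224 TPM. H2-Ab1, the beta chain of I-A (chr17:34257689-34269419, plus strand), had 279.9, 12.1, 409.6, 20.02 and 78.5 TPM. In all 3 genes replicate 3 was highest and replicate 1 next, the library labelled replicate 5 lay between, and replicates 4 and 2 were lowest. The highest library was 159.8 times the lowest for H2-Aa, 99.3 times for Cd74 and 33.8 times for H2-Ab1.

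The same order held for the other class II genes above the limit. H2-Eb1, the beta chain of I-E (chr17:34305867-34316674, plus strand), had 124, 2.85, 218, 6.47 and 36.4 TPM. H2-DMb1 and H2-DMa, which load peptide onto class II molecules, had 38.8, 1.39, 55.7, 2.41 and 11.5 TPM and 34.5, 3.77, 46.9, 5.80 and 10.96 TPM. H2-DMa overlaps Brd2 on the opposite strand, and reads of the pair could be mixed. Their SDs were 2.52, 2.04 and 1.46, against 2.98 for H2-Aa, 2.83 for Cd74 and 2.20 for H2-Ab1. In the 5 WT libraries the SDs of these 6 genes were between 0.29 and 0.52. Without the library labelled replicate 5 the SDs in the RhoB-/- libraries were larger, between 1.67 for H2-DMa and 3.42 for H2-Aa. Ciita, the coactivator of class II transcription, was below the limit, with 5.93, 0.31, 7.44, 0.43 and 1.21 TPM, in the same order.

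The centred profile of H2-Aa was nearest to that of Cd74, with a root mean square difference of 0.15 log2 units over the 5 libraries. H2-Eb1 at 0.44 and H2-Ab1 at 0.73 were next among all 9001 members. A cluster of 7 of the 425 most variable genes, H2-DMa, H2-DMb1, Psmb9, Psmb8, H2-Ab1, H2-Aa and H2-Eb1, spanned chr17:34119541-34316674. Other clusters, in which each gene lay within 100 kb of the next, held Ifit2, Ifit3, Ifit3b, Ifit1bl2 and Ifit1 on chromosome 19 and Clca4b, Clca4a and Clca1 on chromosome 3.

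Promoters of class II genes are known to carry an X box and a Y box, bound by the RFX and NF-Y complexes on which Ciita acts. The boxes are shown because these genes varied together. RefSeq promoter windows of the 250 bases before a gene's start (build GRCm38.p6) were searched on both strands. Bases after the start were not searched. The X box letters were CTNGNAAC (reverse GTTNCNAG) and the Y box letters TGATTGG (reverse CCAATCA), which do not overlap each other. The letters were chosen with these promoters and values known. The X box letters were in 3594 of 32851 windows (10.9%) and the Y box letters in 2375 (7.23%). An X box followed by a Y box within 40 bases, both on the gene's own strand, was in 16 windows (0.0487%). Among them were those of H2-Aa, H2-Eb1 and H2-DMb1, at chr17:34287852-34287922 on the minus strand, chr17:34305758-34305827 on the plus strand and chr17:34153079-34153149 on the plus strand. The stretches begin 99, 109 and 112 bases before the RefSeq start. By the gene positions used elsewhere here H2-DMb1 starts at chr17:34153072, so its stretch lies inside that gene model. The sequences read 5′ to 3′ as follows, with the X box and Y box letters in capitals.
H2-Aa: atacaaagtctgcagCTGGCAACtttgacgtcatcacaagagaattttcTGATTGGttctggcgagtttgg
H2-Eb1: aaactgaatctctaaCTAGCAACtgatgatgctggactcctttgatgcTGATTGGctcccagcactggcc
H2-DMb1: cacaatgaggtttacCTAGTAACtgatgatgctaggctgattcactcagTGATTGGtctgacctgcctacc

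The boxes were 26 bases apart in H2-Aa and H2-DMb1 and 25 bases apart in H2-Eb1. The pair was also in the windows of 5 other members, Mccc1, Dnmt1, Mark3, Net1 and Cks2, with SDs from 0.14 to 0.40. Windows of H2-DMa, Reg3b, Reg3g and Clca4b held neither set of letters, which says only that these letters were not in this window. H2-Ab1, Cd74 and Ciita had no entry in the promoter table. A match describes the sequence and shows neither binding nor a cause of the spread.

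Of the 35 genes listed for the interferon-gamma response, MHC class II and guanylate-binding proteins, 25 were members, and 13 of these were among the 425 most variable protein-coding genes. Their median SD was 0.52, against 0.232 for all protein-coding members, and 0.32 for the same 25 genes in WT libraries. The median deviations of the list were 0.31, -0.39, 0.42, -0.35 and 0.05, and 21 of the 25 genes were lowest in replicate 2, which was lowest in 61.5% of all protein-coding members. Iigp1, an immunity-related GTPase, had 20.9, 3.28, 20.8, 5.59 and 9.12 TPM. Ido1, which degrades tryptophan, had 14.03, 1.97, 11.96, 4.81 and 7.31 TPM, and the ubiquitin-like Ubd 12.6, 3.07, 15.1, 4.62 and 8.66 TPM. Replicates 1 and 3 were high and replicate 2 lowest in all 3 genes. The immunoproteasome subunit Psmb8 varied less, with 170.5, 87.4, 237, 133 and 151 TPM. Irgm2, another GTPase of the list, hardly varied, with 28.0, 26.0, 29.2, 28.0 and 33.4 TPM and an SD of 0.13, and the transcription factor Irf1 had an SD of 0.26. The spread was therefore uneven within the list.

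Class I genes spread less than class II genes. Of 12 members, 3 were among the 425 most variable, and the median SD was 0.31. With centred libraries the median SD was 0.20, against 0.175 for all protein-coding members. H2-Q7, a non-classical class I molecule, had 62.7, 22.1, 94.6, 24.8 and 30.4 TPM. B2m, the light chain shared by class I molecules, had 2258, 1867, 2821, 2066 and 2548 TPM, an SD of 0.24. H2-Q7 thus had replicates 1 and 3 apart from the rest, while B2m differed by 1.51 times between its extremes.

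Few markers of cells that express class II constitutively reached a mean of 5 TPM in these libraries, and fewer cells of a type cannot be told apart from less RNA per cell in bulk samples. Of 25 B cell and plasma cell markers 3 were members, and the summed level of the list was 149, 108, 162, 136 and 209 TPM, highest in the library labelled replicate 5. Most of each sum was Sdc1, at 112, 95.8, 113, 107 and 124 TPM, an SD of 0.13. Igkc, an immunoglobulin light chain gene, varied more, with 14.7, 3.63, 22.7, 10.9 and 33.7 TPM, an SD of 1.11. All 3 members were lowest in replicate 2. Cd79a, part of the B cell receptor, had 0.52, 0.09, 1.96, 0.59 and 6.09 TPM. Of 25 macrophage, dendritic cell and granulocyte markers 5 were members, and the list summed to 83.0, 32.5, 80.0, 51.6 and 100 TPM. Replicates 2 and 4 were lowest in both sums, as they were for the class II genes, but the library labelled replicate 5 was highest. In the B cell list Tnfrsf17 was at 0 in all 5 libraries, and Ms4a1, which marks B cells, had 0.27, 0.09, 0.43, 0.41 and 1.01 TPM. Among the members of the macrophage and dendritic cell list, the leukocyte surface protein Cd52 had 11.97, 4.05, 10.3, 5.83 and 13.03 TPM and the actin-binding Coro1a 7.11, 3.95, 9.52, 5.13 and 9.01 TPM. Replicates 1, 3 and 5 lay above 2 and 4 in both, as for class II, while the other 3 members were each divided in another way and 2 of the 5 were lowest in replicate 3. The median deviations of the 5 members were 0.41, -0.41, 0.11, -0.32 and 0.28, and that in replicate 3 was -0.11 relative to genes of similar length. Defining markers of the macrophage and dendritic cell list were lower: the dendritic cell integrin Itgax had 1.34, 0.49, 0.55, 0.61 and 0.53 TPM, and the macrophage receptor Csf1r 0.83, 0.25, 0.25, 0.53 and 0.47 TPM. The part of such cells in the class II levels was not tested.

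Genes of other functions had the same libraries low. Reg3g had 1031, 53.7, 529, 76.7 and 409 TPM, and Reg3b had 3131, 248, 2219, 262 and 1652 TPM. Clca4b, of the chloride channel accessory family (chr3:144910921-144932529, minus strand), had 260.2, 7.56, 81.4, 11.9 and 121 TPM. Replicate 1 was highest and replicates 2 and 4 lowest in all 3 genes, so the order of the high libraries differed from that of class II. Their SDs were 1.84, 1.75 and 2.13, against 0.57, 0.74 and 0.30 in the WT libraries. Without the library labelled replicate 5 they were 2.07, 1.95 and 2.31.

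Lrg1, a secreted acute-phase glycoprotein, had 14.7, 0.37, 9.11, 0.16 and 3.52 TPM. Tac1, the precursor of substance P, had 20.3, 3.67, 10, 1.96 and 9.19 TPM. Replicates 2 and 4 were again the lowest in both genes, with replicate 1 highest. The SD of Lrg1 was 1.68 here and 0.12 in the WT libraries, and that of Tac1 was 1.12 and 0.37. The WT levels behind these SDs are not given here, and an SD taken near 0 TPM is small. Slc15a2, a peptide transporter, and St3gal5, a sialyltransferase, followed the same division, with SDs of 1.18 and 1.14 here and of 1.01 and 1.39 in WT. Without replicate 4 the SD of Slc15a2 was 0.73.

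**Figure D3:**
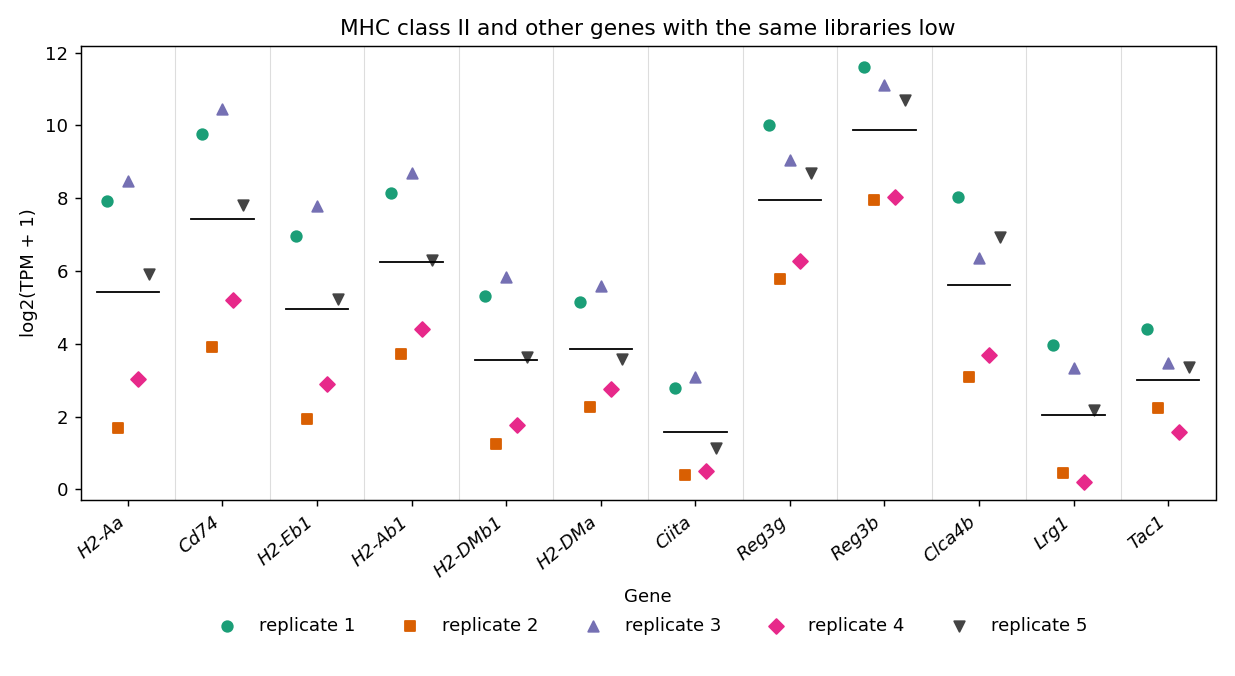
Genes in which replicates 2 and 4 were lowest. The y axis gives log2(TPM + 1), each symbol is 1 RhoB-/- library and the short black line is the mean of the 5. The class II genes from H2-Aa to Ciita had replicate 3 highest, Reg3g, Reg3b and Clca4b had replicate 1 highest, and in H2-Aa the libraries ran from 2.23 to 356 TPM.

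Of the 17 members listed as acute-phase, Reg and antimicrobial genes, 10 were among the 425 most variable, and the median SD was 0.56 both here and in the WT libraries. The list did not move as one. Nos2, the inducible nitric oxide synthase, had 19.8, 5.09, 6.10, 3.31 and 11.7 TPM, and Duoxa2, the maturation factor of the dual oxidase Duox2, had 203, 74.9, 127, 98.7 and 249.8 TPM. In both of these replicate 1 and the library labelled replicate 5 were highest. Saa3, an acute-phase apolipoprotein, had 47.3, 21.7, 61.7, 18.1 and 93.7 TPM, with replicates 2 and 4 lowest. The bactericidal lectin Zg16 and the transport receptor Pigr had SDs of 0.12 and 0.16. Socs3, the feedback inhibitor of STAT3 signalling, was at 56.5 TPM in replicate 1 and between 7.69 and 19.9 TPM in the other 4 libraries, and its SD fell from 1.09 to 0.64 without replicate 1.

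A smaller number of genes had replicates 2 and 4 highest. Mptx1, a pentraxin of the mucosa, had 1867, 8565, 1089.5, 3774 and 1634 TPM. Clps, encoding colipase, had 30.8, 96.3, 24.3, 78.3 and 37.2 TPM, and Sval1, a secreted protein of the seminal vesicle antigen-like family, had 138, 361, 94.4, 234 and 115 TPM. Replicate 2 was highest in these 3 genes and replicate 4 next, and replicate 3 was lowest. The SD of Mptx1 was 1.17, against 0.45 in the WT libraries, and fell to 0.75 without replicate 2.

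Proliferation genes were highest in replicate 3. Cdk1, the mitotic kinase, had 32.5, 18.5, 73.8, 44.3 and 28.3 TPM. The spindle and survival protein Birc5 had 27.7, 18.9, 61.2, 36.9 and 19.96 TPM, and Ube2c, which targets mitotic cyclins for degradation, had 46.1, 34.4, 98.3, 55.3 and 34.5 TPM. Replicate 3 was highest in all 36 proliferation members, and replicate 2 was lowest in 34. Over all protein-coding members replicate 3 was highest in 48.5% and replicate 2 lowest in 61.5%. The median deviations were -0.02, -0.30, 0.64, 0.07 and -0.36, and 24 of the 36 were among the 425 most variable genes. The median SD was 0.52 here, 0.27 without replicate 3, and 0.23 in the WT libraries.

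The cytosolic ribosomal protein genes were also highest in replicate 3, in 75 of 75 members against 48.5% of all protein-coding members, with a median deviation of 0.42. Rplp1, a protein of the ribosomal stalk, had 1597, 1399, 2760.1, 1744 and 1602 TPM. Transcript length moved with the values of replicate 3, in which the shortest of 3 equal groups of protein-coding members had a median deviation of 0.14 and the longest group of -0.16. Compared with members of similar length, the median deviation of ribosomal protein genes in replicate 3 was 0.22 and that of proliferation genes 0.61. Both lists stayed above 0 in every member there. Of the 10 crypt stem cell and progenitor markers, 9 were highest in replicate 3, against 48.5% of all protein-coding members, with a median SD of 0.21 that was 0.13 without it. The part of RNA quality and of library preparation in these shifts was not tested.

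Mitochondrially encoded mRNAs were low in replicate 3. The 13 members had median deviations of 0.30, 0.74, -0.69, 0.18 and -0.49, and 12 of them were highest in replicate 2, which was highest in 2.94% of all protein-coding members. mt-Co2, a subunit of cytochrome c oxidase, had 799, 842, 235, 706 and 143 TPM, an SD of 1.17 against 0.34 in the WT libraries. It was lowest in the library labelled replicate 5 and low in replicate 3. The mitochondrial rRNA mt-Rnr2 had 1434, 2699, 537, 2105 and 757 TPM, in the same division.

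Interferon-stimulated genes, the antiviral programme of type I and type III interferon, varied in another order than class II. Ifit3, which binds viral RNA as part of the IFIT complex, had 27.2, 51.0, 26.8, 78.1 and 76.7 TPM. Isg15, a ubiquitin-like modifier, had 269, 305, 391, 558 and 647 TPM. Of 48 members, 36 were highest in the library labelled replicate 5 and 10 in replicate 4, and 27 were lowest in replicate 1. The shares of all protein-coding members were 36.9%, 7.02% and 16.9%. The median deviations were -0.30, 0.10, -0.32, 0.20 and 0.29. Replicates 1 and 3, which were high for class II, were thus low for this list. The median SD was 0.33, and 9 of the 48 were among the 425 most variable genes. Without the library labelled replicate 5 the median SD was 0.27, and replicate 4 was highest in 44 of the 48, against 15.7% of all protein-coding members.

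Surface colonocyte markers were higher in the library labelled replicate 5. The water channel Aqp8 had 465, 274, 422, 399.6 and 839 TPM, and the keratin Krt20 had 1652, 1069.5, 1621, 1505 and 2414 TPM. Of 28 members, 22 were highest in that library, against 36.9% of all protein-coding members, and their median deviation in it was 0.29. Their median SD of 0.29 was 0.19 without it. Its stem cell markers lay at -0.21 and its goblet cell markers at -0.25, with 0 of 10 and 1 of 21 genes above the typical protein-coding member. Muc2, the main secreted mucin of goblet cells, had 4565, 4327, 3294, 5005 and 4279 TPM, an SD of 0.22. Clca1, secreted with mucus, had 2966, 3983, 1458, 2469 and 2328 TPM, an SD of 0.53, or 0.35 without replicate 3, with replicate 2 highest and replicate 3 lowest.

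Genes of position along the colon differed between the libraries. Hoxb13, a homeobox gene of the distal colon, had 22.4, 35.1, 17.8, 26.5 and 13.99 TPM, and Hoxa13 had 11.4, 9.42, 4.68, 6.64 and 4.38 TPM. Hoxb6, listed with the proximal colon, had 21.0, 17.1, 49.4, 31.6 and 34.4 TPM. Replicate 3 was highest in Hoxb6 and next to lowest in Hoxb13 and Hoxa13, whereas replicate 2 was lowest in Hoxb6, highest in Hoxb13 and next to highest in Hoxa13. Ly6g6c, a Ly6 family gene listed with the distal colon, had 4.34, 4.78, 8.88, 7.35 and 26.8 TPM. It was highest in the library labelled replicate 5 and low in replicates 1 and 2, unlike Hoxb13 and Hoxa13, and its SD fell from 0.95 to 0.42 without the library labelled replicate 5. Of the 6 distal members all were among the 425 most variable, with median deviations of -0.01, 0.81, -0.55, 0.10 and -0.39. The 14 proximal members had 0.03, -0.20, 0.17, 0.10 and 0.14, but the value in replicate 2 was 0.0048 at a limit of 20 TPM and that in replicate 3 was 0.02 relative to genes of similar length. Whether the stretches of colon taken differed in position was not tested.

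The 9 enteroendocrine members shared no common order, and their widest gaps gave 8 different divisions of the libraries. Secretin, encoded by Sct, had 68.2, 50.8, 165, 67.3 and 88.4 TPM, and Gcg, the proglucagon gene, had 17.2, 17.8, 44.1, 28.6 and 30.2 TPM, with replicate 3 highest. Chga, a granin of hormone granules, had 35.9, 71.4, 46.3, 78.2 and 52.9 TPM, and Insl5, a hormone of distal colon L cells, had 7, 15.2, 4.43, 9.72 and 7.05 TPM, with replicates 2 and 4 highest. The SDs of these 4 genes lay between 0.45 and 0.64, and that of Sct was 0.32 without replicate 3.

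Some spread belonged to transcripts of cells outside the epithelium. The haemoglobin genes, markers of red cells, were the most variable list, with 4 of 8 genes as members and a median SD of 1.45, which was 0.72 without replicate 2. Summed over the near-identical copies Hba-a1 and Hba-a2, alpha globin came to 226, 34.9, 222, 546 and 177 TPM. Replicate 4 was highest and replicate 2 lowest, as they were for the beta globins. Dcn, encoding decorin of fibroblasts, had 3.27, 4.49, 5.28, 11.1 and 24.5 TPM, and 3 of the 24 stromal, muscle and endothelial markers were members. The list summed to 39.9, 44.3, 42.98, 65.4 and 97.7 TPM, and its endothelial marker Cldn5 was at 0 in all 5 libraries. Rarres2 and Igfbp6, which stromal cells secrete, had SDs of 1.35 and 1.15 and were likewise highest in the library labelled replicate 5 and next in replicate 4. The 7 T cell and intraepithelial lymphocyte members had a median SD of 0.19.

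Single libraries carried further genes. Svs5 and Svs4, secretory proteins of the seminal vesicle, were at 83.2 and 43.2 TPM in replicate 1 and listed at 0 in the others. They lie at chr2:164332740-164334396 and chr2:164275952-164278459, and their SDs of 2.86 and 2.44 rest on replicate 1. Slpi, a protease inhibitor of mucosal surfaces, had 21.0, 1.67, 14.4, 10.1 and 21.97 TPM, and its SD fell from 1.27 to 0.49 without replicate 2. A 105-base gene with the symbol Ddit3 (ENSMUSG00000116429) was at 217 TPM in replicate 2, 3.54 in replicate 3 and 0 in the others. It overlaps the longer Ddit3 (ENSMUSG00000025408) on the same strand, which had 29.2, 31.9, 40.5, 47.4 and 38.4 TPM and an SD of 0.27, so that the division of reads between them is uncertain.

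Rhob itself (chr12:8497661-8500009, minus strand) had an SD of 2.90, which rests on the library labelled replicate 5 and was 0.25 without it. Within 1 Mb, the apolipoprotein gene Apob had 20.6, 12.4, 22.9, 11.9 and 35.5 TPM, and Pum2, an RNA-binding translational regulator, had an SD of 0.10. The related GTPases varied little. Rhoa had 172, 155, 203, 181 and 195 TPM, an SD of 0.15, and Rhoc had 327, 292, 297, 349.6 and 444 TPM, an SD of 0.24 that was 0.12 without the library labelled replicate 5. With centred libraries the SDs of Rhoa and Rhoc were 0.0052 and 0.22. The profiles nearest to that of Rhob were those of Gm22907, Gm37419 and n-R5s128, short genes that were above 0 only in the same library.

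**Figure D4:**
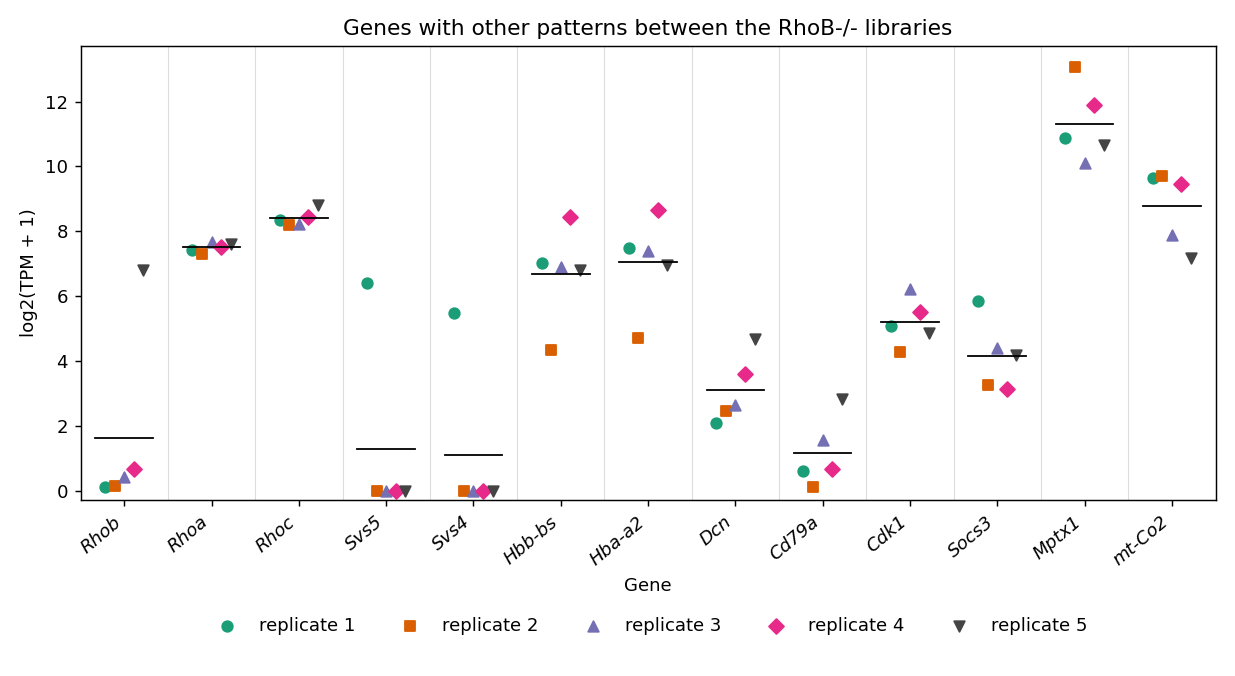
Genes with other orders of the RhoB-/- libraries. The y axis gives log2(TPM + 1), each symbol is 1 library and the short black line is the mean of the 5. Rhob was high only in the library labelled replicate 5, Svs5 and Svs4 only in replicate 1, the globins Hbb-bs and Hba-a2 were lowest in replicate 2, and Rhoa and Rhoc had SDs of 0.15 and 0.24, or 0.16 and 0.12 without the library labelled replicate 5.

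**Figure D5:**
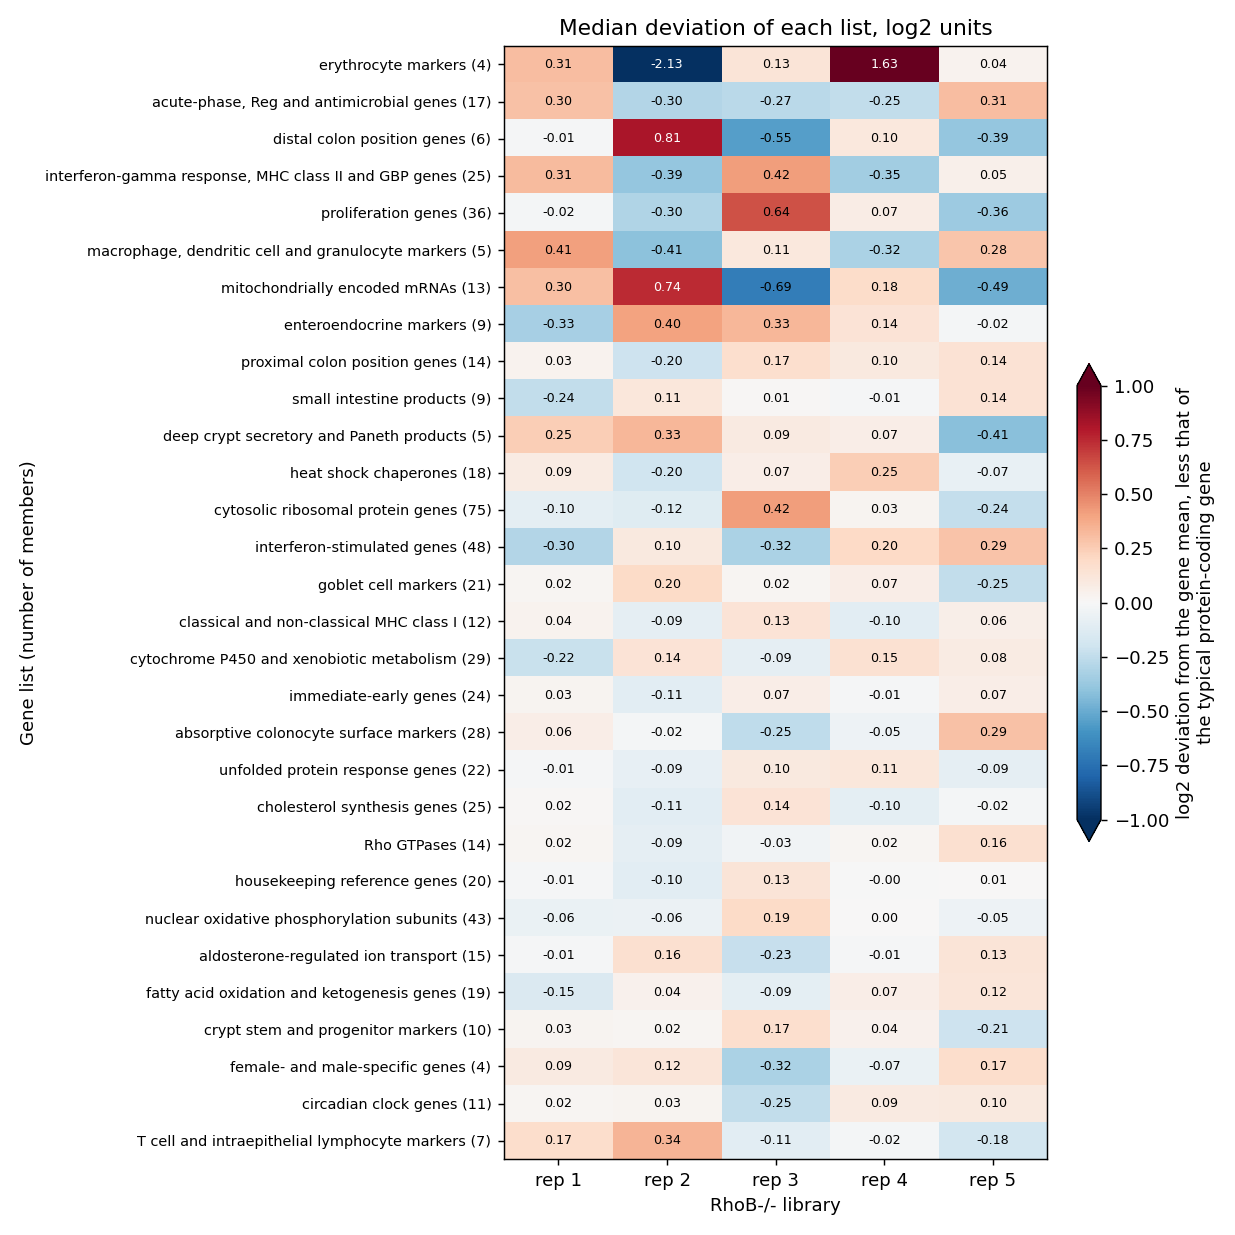
Median deviation of gene lists in each RhoB-/- library. Each cell gives, in log2 units, the median over a list's members of the deviation from the gene's mean, less that of the typical protein-coding member, with the number of members in brackets and colours that end at 1 and -1. The class II list was above 0 in replicates 1 and 3 and below it in 2 and 4, the proliferation list stood at 0.64 in replicate 3, and interferon-stimulated genes were lowest in replicates 1 and 3.

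Lists of general cell functions had median SDs on both sides of the 0.232 of all protein-coding members. The 11 circadian clock genes had 0.20 and the 19 fatty acid oxidation and ketogenesis genes 0.23. Nuclear oxidative phosphorylation subunits had a median SD of 0.24 over 43 members and reference housekeeping genes 0.25 over 20. The 22 unfolded protein response genes had 0.26 and the 25 cholesterol synthesis genes 0.25. With centred libraries these lists had 0.21, 0.16, 0.12, 0.15, 0.16 and 0.16 in the order named. The centred median of all protein-coding members was 0.175, so the side on which a list fell depended on the scaling. Heat shock chaperones had 0.36 over 18 members, and 15 of these were lowest in replicate 2, against 61.5% of all protein-coding members. Without that library the median SD of the chaperones was 0.20. Hsph1, a co-chaperone of Hsp70, had 38.4, 17.3, 39.8, 51.6 and 41.9 TPM. Immediate-early genes had a median SD of 0.29, against 0.59 for the same genes in the WT libraries. The transcription factor Fosb was among the steadier of them, with 155, 184.5, 195, 160.3 and 181 TPM and an SD of 0.14.

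The steadiest members were Tax1bp3, Dhx35, Atmin, Ube4b and Gne. Tax1bp3, a PDZ protein, was between 99.7 and 101 TPM in all 5 libraries, an SD of 0.01. Gne, which begins sialic acid synthesis, was between 201 and 210.5 TPM, an SD of 0.03. In the WT libraries their SDs were 0.26 and 0.28, both above the WT median of 0.183 over protein-coding members. After centring of the libraries the SDs of Tax1bp3 and Gne here were 0.15 and 0.17, near the centred median of 0.175 over protein-coding members, so the small SDs hold for the TPM as deposited.

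Across protein-coding members, the rank correlation between the SD in RhoB-/- and in WT libraries was 0.10 (Spearman's rho across 8499 genes, which are not independent replicates). Over all members it was 0.14 as deposited. There it depended on the scaling, at 0.34 with centred libraries and 0.35 after quantile normalization. The 425 most variable genes had a median WT SD of 0.302, against 0.183 for all protein-coding members, and 335 of them (78.8%) were above that value. Both sets of 425 most variable genes shared 115. The SD was almost unrelated to level, with a rho of 0.07 against the mean TPM.

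A principal component analysis of the 8499 protein-coding members gave 49.3% of the variance to the first component, on which replicate 2 (27.3) and replicate 3 (-27.3) lay at the ends. Replicate 1 lay at 4.41, replicate 4 at 1.93 and the library labelled replicate 5 at -6.37. Class II genes led the side of replicate 3, together with Clca4b, Reg3g and Reg3b, and Mptx1 and mt-Co2 were among those leading the other. The second component held 24.2% and was led by Rhob, on the side of the library labelled replicate 5. After the median deviation of each library was subtracted, the second component (28.3%) had replicate 1 at 13.3 and the library labelled replicate 5 at 13.9, opposite to replicate 2 at -13.3 and replicate 4 at -11.5, and H2-Aa, Clca4b and Cd74 led its positive side.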

How the data were processed

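RNA of colon IECs was sequenced from mice labelled as RhoB-/- (5) and WT (5). The deposited table holds TPM as the authors computed it, 1 column per library. The submitters' processing notes name HISAT2, StringTie, RSEM, edgeR and GRCm38.p6, and the study's methods name SeqPrep and Sickle for trimming. Tool versions and the annotation are not given in the sources used here. TPM is scaled within each library and keeps no depth, so the reads behind a value are unknown and no counting error is given. A gene that takes much of a library lowers the others in it.

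Values of the 5 RhoB-/- libraries were analysed as log2(TPM + 1) for genes with a mean of at least 5 TPM, with Python 3.11.15, numpy 2.4.6, pandas 2.3.3 and matplotlib 3.10.9. Each gene was described by its SD, its highest and lowest library and the widest gap between neighbouring libraries. Positions, classes and lengths are from GENCODE on GRCm38, in which 8995 of the 9001 members were found, and promoters are from RefSeq on GRCm38.p6. Samples were grouped by their labels, and no test was made. The code was tested on simulated data.

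Members and the 39 gene lists were chosen with earlier results of these data known. Named genes were the 25 members with the largest SD that are neither predicted genes nor small RNAs, the next 5 at a mean of at least 100 TPM, the 5 with the smallest SD, the most variable member of each list with at least 3 members (3 genes for the 8 most variable lists), Rhob, Rhoa and Rhoc, the 3 profiles nearest to each of the 5 most variable genes, the genes next to the TPM limit and the genes leading the first 2 components. Any other gene was named after its values were seen. Some genes, including one the rule would name, are left out of the text. Lists with fewer than 3 members were not summarised in the report. Alternatives were a pseudocount of 0.1, limits of 1 and 20 TPM, centred libraries, removal of mitochondrial genes, quantile normalization, leaving out each library and, chosen after seeing the data, protein-coding genes alone and deviations relative to genes of similar length.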

Additional observations from a re-analysis of the deposited data

Results flagged for a closer look

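Of the 101 genes named by rule, 23 had 1 library far from the other 4, as judged by the gap to its nearest neighbour relative to the range of the 5 on the log2 scale. By chance about 1 in 20 groups of samples is marked in this way, and 5.15% of all members were. Many of the 101 genes were named for their large SD, and nothing was read from the number.

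In the library labelled RhoB-/- replicate 5, Rhob was far above the others at 111 TPM. The short genes Gm22907 at 109.5 TPM, Gm37419 at 58.1 TPM and n-R5s128 at 143 TPM were above 0 only there. Rpl27-ps3 and Gm23442 were far below the others in that library, both listed at 0.

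In replicate 1, Svs5 was apart at 83.2 TPM and Svs4 at 43.2 TPM, as were Snora64 at 107 TPM, n-R5s134 at 61.8 TPM and n-R5s110 at 54.6 TPM. In replicate 2, the 105-base Ddit3 was high at 217 TPM, with n-R5s149 at 139 TPM, n-R5s138 at 66.8 TPM and Gm21769 at 83.9 TPM. Low values in replicate 2 were those of the chaperone Hsph1 at 17.3 TPM, of Atmin at 5.34 TPM, where the 5 libraries lay within 1.06 times of each other, and of the ribosomal protein retrogene Rps27rt, listed at 0. In replicate 3, the 5S rRNA copies n-R5s124, n-R5s123, n-R5s143 and n-R5s139 stood at 426, 261, 231 and 209 TPM and at 0 in the other libraries. In replicate 4, Gm24157 was listed at 0 against 59.98 to 267 TPM elsewhere. Many of these are short genes inside or beside longer ones, or near-identical copies, and the division of reads between them is uncertain.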

How the results depend on the processing

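The values depend on the TPM limit and on the scaling. The depth is unknown, so counting error could not be separated from the spread between libraries, and with 5 libraries each order is a single observation. No paired analysis was possible because no groups were compared and no result comes from a test.

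The number of members was 12641 at a limit of 1 TPM, 4584 at 20 TPM and 9447 without mitochondrial genes, and lay between 8881 and 9079 with each library left out. An SD of at least 1 was found for 397 members at a limit of 1 TPM, for 59 at 20 TPM, for 46 among protein-coding genes alone, and for 193 to 205 with each library left out. The median SD was 0.180 with centred libraries, 0.195 without mitochondrial genes, 0.177 after quantile normalization and 0.198 to 0.259 with each library left out. One library was apart in 746 members at 1 TPM, in 210 at 20 TPM and in 428 to 576 with each library left out. Replicates 1, 3 and 5 were divided from 2 and 4, either way, in 47 of the 450 most variable members. The count was 67 to 109 with each library left out, where fewer divisions are possible. At 20 TPM it was 29, but there the most variable 5% was taken from 4584 members and held fewer genes. The first component held 36.7% of the variance of all members, 32.7% with a pseudocount of 0.1, 40.2% at 20 TPM, 33% with centred libraries, 32.6% without mitochondrial genes, 31.4% after quantile normalization, 49.3% among protein-coding genes and 41.4% to 47.4% with each library left out. The correlation of the SD with that in WT libraries was 0.14 over all members, 0.34 with centred libraries, 0.26 without mitochondrial genes, 0.35 after quantile normalization and 0.064 to 0.218 with each library left out. A median SD of at least 0.5 was found for 6 lists, for 3 after quantile normalization and for 3 to 9 with each library left out.

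Of 665 alternative values for list deviations that lay at least 0.2 from 0, 4 changed sign: -0.11 for enteroendocrine markers in replicate 3 (0.33 at the main setting) and 0.18 for stromal markers in replicate 2 (-0.42) at 1 TPM, 0.0048 for proximal colon genes in replicate 2 (-0.20) at 20 TPM, and -0.23 for erythrocyte markers in replicate 1 (0.31) without replicate 2, against up to 0.73 without replicate 4. The others of these kept their sign. Relative to genes of similar length, 16 of all 160 list deviations changed sign, each from less than 0.2, and 6 of them in replicate 3. There macrophage markers went from 0.11 to -0.11, erythrocyte markers from 0.13 to -0.09 and small intestine products from 0.01 to -0.13. Goblet cell markers went from 0.02 to -0.12 and nuclear oxidative phosphorylation genes from 0.19 to -0.0047 in the same library. Deep crypt secretory and Paneth products went from 0.09 over 5 members to -0.36 over 4 protein-coding members. For this list the members changed as well as the reference. With centred libraries, 323 of the 425 most variable protein-coding members were shared with the values as deposited. The causes were not tested.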

Other observations

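Metallothioneins, which bind zinc and copper, lay among the most variable members on chromosome 8. Mt1 had 104, 92.5, 196, 151 and 92.3 TPM and Mt2 had 35.6, 24.5, 61.5, 50.5 and 18.8 TPM, both highest in replicate 3 and next in replicate 4. Slc37a2, a sugar phosphate exchanger, had 81.2, 46.1, 74.7, 11.3 and 114 TPM and was lowest in replicate 4, and the sulphotransferase gene Gal3st2c had 13.3, 6.88, 10.8, 1.43 and 17.0 TPM with the same library lowest. Without replicate 4 the SD of Slc37a2 was 0.53 instead of 1.26 and that of Gal3st2c 0.50 instead of 1.14. Nbdy, which encodes a microprotein of mRNA decapping bodies, had 6.93, 15.1, 56.8, 34.6 and 7.53 TPM. C3, the central complement component, had 10.8, 13.99, 12.2, 23.6 and 56.9 TPM, with the library labelled replicate 5 highest. These genes were named after their values were seen.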
